A study of Mus musculus with 8 samples.

Results

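Bile acids are the main products of cholesterol breakdown in liver, and the 10 genes described here encode the enzymes that make and conjugate them, together with the repressor Nr0b2. They were taken as the rows of the deposited table whose gene symbol was Cyp7a1, Cyp7b1, Cyp8b1, Cyp27a1, Cyp39a1, Hsd3b7, Akr1d1, Baat, Slc27a5 or Nr0b2, and all 10 were found among 24197 listed genes. The livers came from mice that lack the transcription factor genes Stat5a and Stat5b in hepatocytes, and from floxed controls.

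In the classic pathway Cyp7a1 hydroxylates cholesterol in the rate-limiting step, whereas the alternative pathway starts with mitochondrial Cyp27a1 and continues with the oxysterol hydroxylase Cyp7b1. Cyp39a1 hydroxylates another oxysterol, one that is made largely in brain. Hsd3b7 acts on the products of Cyp7a1, Cyp7b1 and Cyp39a1. Cyp8b1 adds the hydroxyl group that sets cholic acid apart from the other primary bile acids, and Akr1d1 reduces the steroid ring. Slc27a5 joins bile acids to coenzyme A and Baat transfers them to an amino acid, in mice mostly taurine. Nr0b2, also called SHP, is induced by bile acids through the nuclear receptor FXR and represses Cyp7a1 and Cyp8b1. STAT5 carries the growth hormone signal in hepatocytes, and the sexes of the mouse differ in how growth hormone is released.

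RefSeq promoters on build GRCm38.p6 were at hand for 5 of the 10 genes, namely Cyp8b1, Cyp27a1, Hsd3b7, Akr1d1 and Nr0b2, whereas Cyp7a1, Cyp7b1, Cyp39a1, Baat and Slc27a5 had no entry. The 250 bases before the annotated start were searched on both strands for the STAT5 motif TTCNNNGAA, the LRH-1 motif TCAAGGNCA and the TATA box TATAAA. The STAT5 motif was found in Hsd3b7 at 21 to 13 bases before the start and in Nr0b2 at 91 to 83 bases before it. Of all 32851 promoters of that length, 7.02% held it. The TATA box was found in Cyp8b1 and Nr0b2 and in 12.4% of all promoters. The exact LRH-1 letters were found in none of the 5 and in 1.39% of all. Sites that differ from the searched letters were not counted, so no match does not mean that no site is present. The motifs searched did not overlap one another in these windows. The promoters with a match are shown because Cyp8b1 is the promoter at hand whose gene passed a test below, and Hsd3b7 and Nr0b2 are those that hold the STAT5 letters; capitals mark the motif matches.

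Cyp8b1, minus strand of chr9:121916306-121916555: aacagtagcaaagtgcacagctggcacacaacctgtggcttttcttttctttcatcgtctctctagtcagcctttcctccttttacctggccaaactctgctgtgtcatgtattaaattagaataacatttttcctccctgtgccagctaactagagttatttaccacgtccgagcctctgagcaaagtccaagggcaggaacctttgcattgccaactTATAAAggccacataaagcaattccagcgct

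Hsd3b7, plus strand of chr7:127800359-127800608: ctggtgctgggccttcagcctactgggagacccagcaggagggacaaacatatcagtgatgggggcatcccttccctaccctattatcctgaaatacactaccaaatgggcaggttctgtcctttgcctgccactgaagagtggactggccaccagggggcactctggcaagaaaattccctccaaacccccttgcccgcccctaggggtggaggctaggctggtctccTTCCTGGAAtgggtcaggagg

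Nr0b2, plus strand of chr4:133553126-133553375: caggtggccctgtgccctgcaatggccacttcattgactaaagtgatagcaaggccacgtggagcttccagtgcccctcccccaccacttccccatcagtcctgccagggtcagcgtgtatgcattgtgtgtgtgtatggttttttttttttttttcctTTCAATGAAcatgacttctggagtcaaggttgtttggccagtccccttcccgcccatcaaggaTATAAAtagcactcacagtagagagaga

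In all, 4 groups of mice aged 8 to 12 weeks were profiled, and each group had 2 libraries. The knockout males and knockout females carried a floxed Stat5a-Stat5b locus and a Cre transgene driven by the albumin promoter, so that deletion is directed to hepatocytes while the other liver cells keep both genes. The control males and control females carried the floxed locus and are labelled with no Cre. The floxed mice had a mixed C57BL/6 and 129J background and the Cre line was FVB/N. Each library was made from rRNA-depleted total RNA of a liver pool, and the number of animals in a pool is not given in the labels. The replicates are therefore pools. How far the authors' p-values reflect each gene's spread between pools cannot be told, since the settings of their test are not given here. An exact two-sided permutation test of 2 against 2 libraries cannot go below 0.333. Library codes in the titles were G137 for knockout females, G138 for control females and G140 for control males. Knockout males had G138 and G140, so they shared a code with control females and with control males. In the comparisons made here, group and code cannot be told apart, except in part between the male groups. Within-code values could not be had, since single libraries could not be matched to codes.

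The table lists the mean level of each group as FPKM, fragments scaled by transcript length and by the mapped total of a library. The 2 libraries behind each mean were solved from its decimals, and they are named the deeper and the shallower library by their totals, between 6192515 and 34651386, with the smallest in control males. Stat5b averaged 2.68 ± 1.04 FPKM in the control and 0.859 ± 0.247 in the knockout males, and 3.39 ± 0.698 and 1.44 ± 0.468 in females (SD, n = 2). Stat5a averaged 0.881 ± 0.398, 0.178 ± 0.0684, 0.862 ± 0.0825 and 0.31 ± 0.268 FPKM in that order (SD, n = 2), and both targeted genes passed the authors' test in both sexes. Hepatocyte markers summed to between 13390 and 19320 FPKM in every library, with none of the 6 at 0. A gene is called here when the adjusted p of the authors' edgeR test, over all listed genes, is under 0.05. Changes with a standard error come from limma voom, a weighted linear model of the recovered reads over all 8 libraries with p-values adjusted over 12980 genes. In limma voom Stat5b passed in knockout against control males (adjusted p 0.0485) and not in females (adjusted p 0.0842). Stat5a passed in neither sex (adjusted p 0.145 in males and 0.238 in females). Gene positions below are on build mm9, whereas the promoters above are on GRCm38.p6.

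The genes called in at least 1 comparison were Cyp7a1, Cyp7b1, Cyp8b1 and Cyp39a1. Cyp7b1 was lower without STAT5 in both sexes and was the male-higher gene of controls, Cyp39a1 was the female-higher gene of controls and rose in knockout males, and Cyp7a1 fell in knockout females. Cyp8b1 was higher in males than in females among knockouts. The other 6 genes passed no deposited test. In knockout against control males 2 of the 10 genes were called, against 2.18% of all listed genes. In knockout against control females 2 of 10 were called, against 1.55% of all genes. In control males against control females 2 were called against 1.47%, and in knockout males against knockout females 4 were called against 1.01%. These shares include 6193 listed genes without reads. Of the 8974 genes with a mean of at least 1 FPKM, all 10 included, 245 were called higher and 142 lower in knockout males. The numbers were 207 and 98 in knockout females. They were 116 and 135 in control males against control females, and 83 and 89 in knockout males against knockout females. An unadjusted p under 0.05 was found for 3, 2, 4 and 5 of the 10 genes in these comparisons, and for 955, 910, 856 and 615 of the 8974 genes with a mean of at least 1 FPKM. The comparisons share groups, since each group enters 2 of them.

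Groups whose libraries did not overlap were common in this table and are read against that background. For 4 of the 10 genes the knockout and control male libraries did not overlap, against 39.2% of the 8974 genes with a mean of at least 1 FPKM. For the other comparisons, in the order above, 6, 6 and 6 of the 10 genes had non-overlapping groups, against 52.9%, 47.5% and 36.9%. Overlap was judged on FPKM, which divides by the mapped total and not by the reads in genes. Genes held 11361272 of 34651386 reads in the deeper control female and 10802418 of 30417900 in the deeper knockout female library. A lower share in genes lowers the FPKM of all genes alike, and its part in these counts was not tested. The median deposited log2 ratio of the 10 genes was 0.14, 0.15, 0.09 and 0.03 in the 4 comparisons, beside -0.02, 0.01, 0.02 and 0.01 over the 8974 genes. With limma voom the called members were Cyp7b1 and Cyp39a1 in knockout against control males, where 1.52% of genes were called. The same 2 genes were called in control males against control females, where 0.763% were called. In knockout against control females and in the sexes of the knockouts voom called none of the 10, with 0.354% and 0.385% of genes called.

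**Figure D1:**
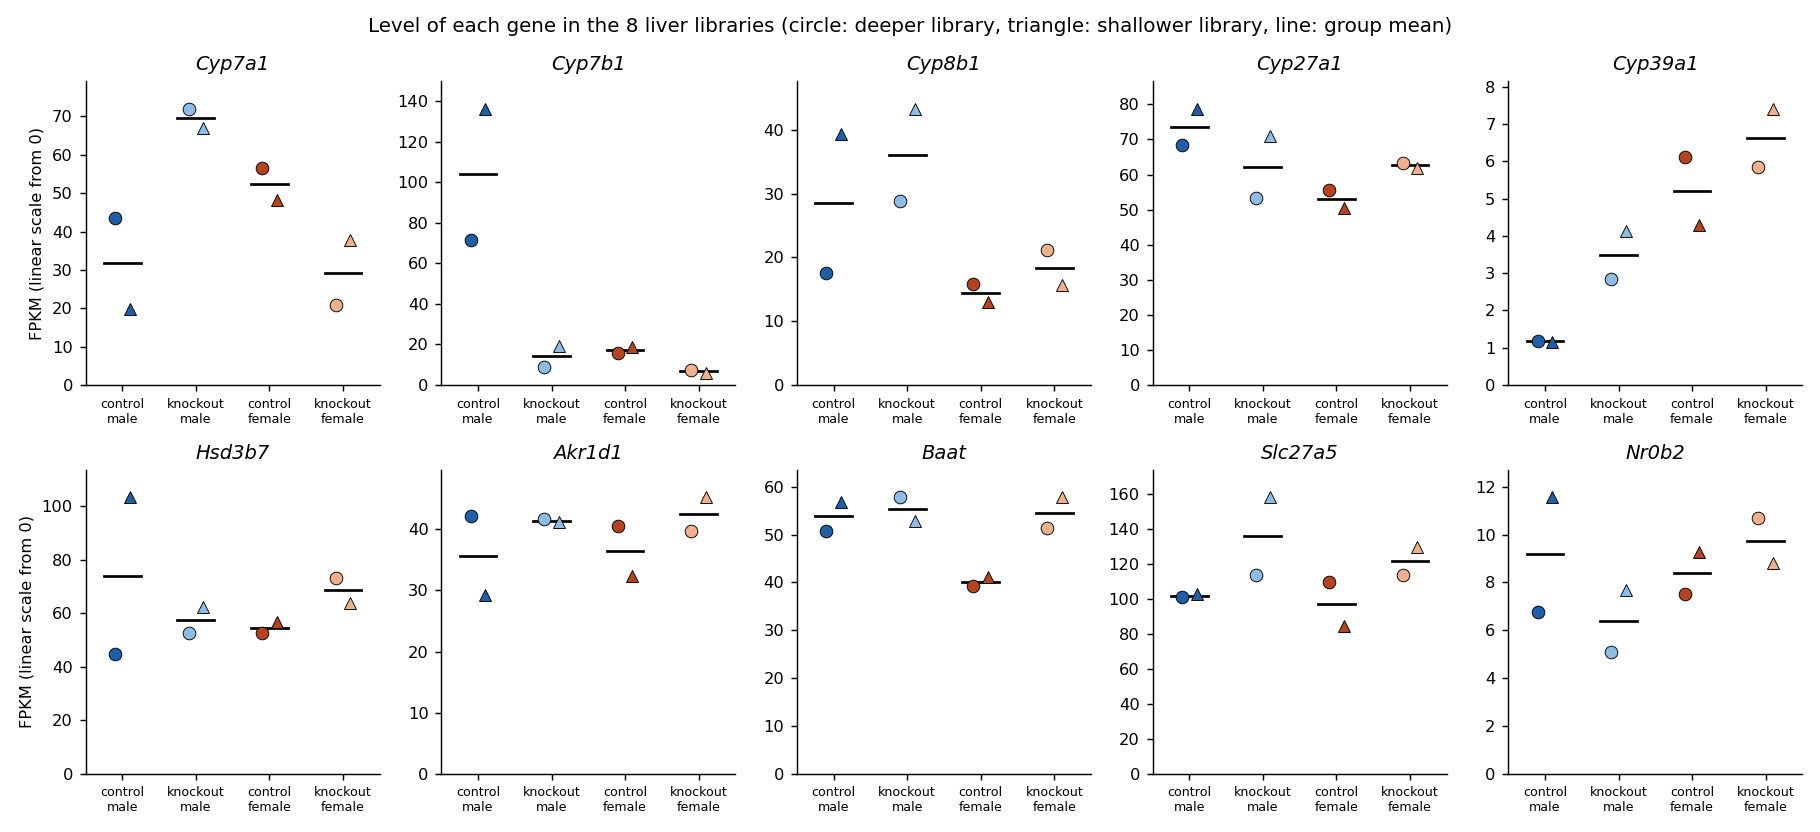
FPKM of the 10 genes, on a linear axis from 0 that differs between panels, in the deeper (circle) and shallower (triangle) library of each group, with the group mean as a line (n = 2). Cyp7b1 was at 71.7 and 136 FPKM in control males and at most 19.5 in the 6 other libraries, and Cyp39a1 was lowest in control males.

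Cyp7a1 (mm9 chr4:6192758-6202778, NM_007824), which sets the rate of the classic pathway, had its highest levels in knockout males. It was at 43.6 FPKM in the deeper and 19.9 in the shallower control male library, at 72 and 67 in the knockout male, 56.5 and 48.1 in the control female and 20.9 and 37.7 in the knockout female libraries. The knockout male libraries lay above all others, the control female libraries came next, and the control males and knockout females overlapped below them. In control males the deeper library held 5302 Cyp7a1 reads and the shallower 514, so counting error was small beside the difference between these pools.

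The authors' deposited table gives Cyp7a1 as 1.96-fold lower in knockout than in control females, with an adjusted p of 0.011. In males it gives a value 2.15-fold higher in knockouts, with an unadjusted p of 0.00148 and an adjusted p of 0.0636, which misses the threshold. Between the sexes Cyp7a1 was 2.42-fold higher in males among knockouts (adjusted p 0.000521), and in controls the male value was 1.76-fold lower (adjusted p 0.48). The limma voom log2 changes were 1.28 (SE 0.406, adjusted p 0.195) in males and -1.02 (SE 0.402, adjusted p 0.469) in females, and neither passed. Leaving out 1 library moved them widely: the male value was 0.59 without the shallower and 1.90 without the deeper control male library, and the female value was -0.60 without the deeper and -1.46 without the shallower knockout female library.

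The direction of the Cyp7a1 difference was opposite in the sexes, and that difference was tested as a genotype by sex interaction. limma on log2(FPKM + 1), fitted over 18004 genes, gave an interaction of 2.07 on the log2 scale with an unadjusted p of 0.0105 and an adjusted p of 0.84. limma voom gave 2.30 (SE 0.571), with an unadjusted p of 0.00311 and an adjusted p of 0.72. Of all genes tested, 0.0111% (2 genes) passed in the FPKM fit and 0 in the voom fit, where 662 had an unadjusted p under 0.05, so none of the 10 genes was called. For Cyp39a1 the voom interaction was 1.30 (SE 0.342, unadjusted p 0.00442) and for Cyp7b1 it was -1.43 (SE 0.477, unadjusted p 0.0156).

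**Figure D2:**
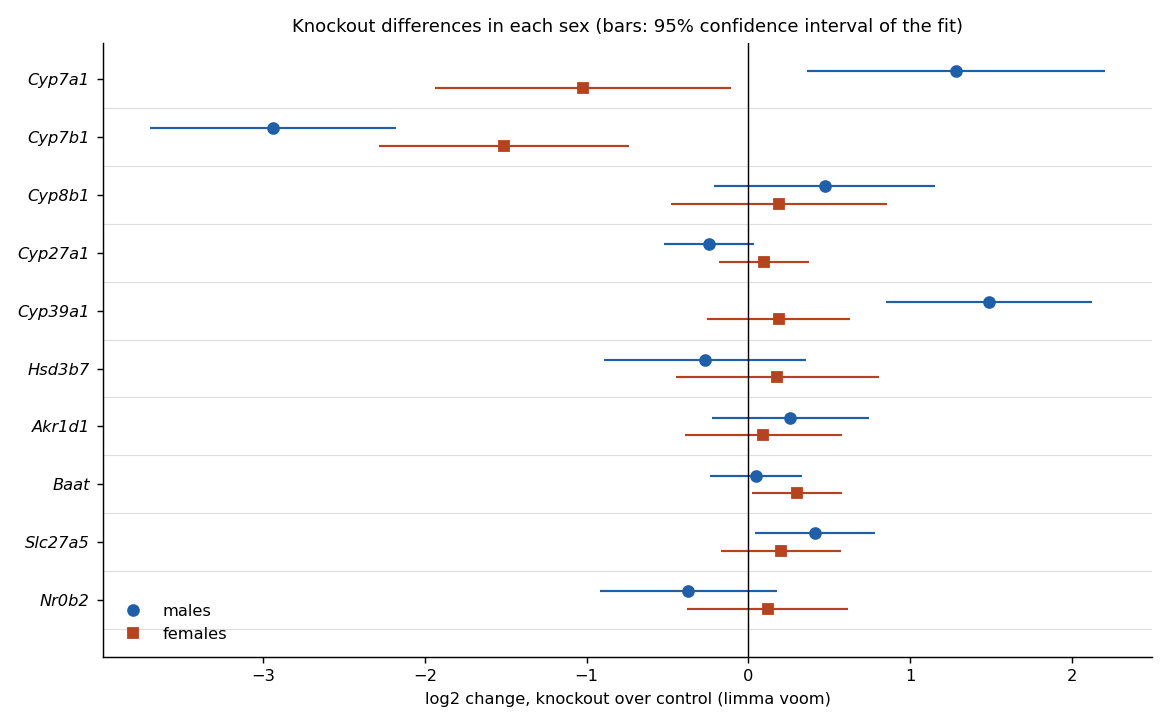
log2 change between knockout and control livers from limma voom for each gene, in males (circles) and females (squares), with the 95% confidence interval of the fit as bars. Cyp7a1 lies at 1.28 in males and -1.02 in females, Cyp7b1 lies below 0 in both sexes, and the other intervals include 0 except those of Cyp39a1 and Slc27a5 in males and of Baat in females.

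Cyp27a1 (chr1:74760147-74784464), the mitochondrial hydroxylase that opens the alternative pathway, varied little. It was at 68.4 and 78.8 FPKM in the control male libraries, 53.3 and 71.1 in the knockout male, 55.7 and 50.5 in the control female and 63.4 and 61.9 in the knockout female libraries. Its highest library stood 1.56-fold above its lowest. No deposited comparison called it, with folds from 1.01 to 1.25, and the voom interval of the knockout change ran from -0.52 to 0.04 in males and from -0.18 to 0.38 in females.

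Cyp7b1 (chr3:17971949-18143338, NM_007825), the next enzyme of that pathway and also a hydroxylase of steroid hormones, had the widest range of the 10 genes. Its level was 71.7 FPKM in the deeper and 136 in the shallower control male library, 8.8 and 19.5 in the knockout male, 16 and 18.9 in the control female, and 7.3 and 6.14 in the knockout female libraries. The control male libraries stood far above the rest, the knockout male and control female libraries overlapped, and the knockout female libraries were lowest. The highest library was 22.2-fold above the lowest.

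In the authors' deposited table the knockout level of Cyp7b1 was 7.2-fold below the control level for males (adjusted p 9.19e-13) and 2.85-fold below it for females (adjusted p 4.1e-11). Control males exceeded control females 5.27-fold (adjusted p 3.72e-15), and knockout males exceeded knockout females 2.11-fold (adjusted p 0.0312). The voom log2 change was -2.94 (SE 0.335, adjusted p 0.0062) in males. Without the shallower control male library, where Cyp7b1 was highest, it was -2.54 (SE 0.385, adjusted p 0.044), and without the deeper it was -3.28 (SE 0.373, adjusted p 0.0198). In females the voom change was -1.51 (SE 0.339) with an adjusted p of 0.142. Between control sexes it was 2.41 (SE 0.337, adjusted p 0.0142), a call lost without either control female library or the shallower control male library (adjusted p 0.09 to 0.199), and between knockout sexes 0.98 (SE 0.338, adjusted p 0.422).

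Cyp39a1 (chr17:43804320-43888380), the oxysterol hydroxylase with the lowest level among the 10 genes in control males, went the other way. It was at 1.19 and 1.14 FPKM in the control male libraries, 2.84 and 4.13 in the knockout male, 6.1 and 4.28 in the control female and 5.84 and 7.41 in the knockout female libraries. The control male libraries were lowest, the knockout male libraries lay between them and both female groups, and the female groups overlapped. The control male values rest on 108 and 22 reads.

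Knockout males exceeded control males 2.91-fold for Cyp39a1 in the authors' deposited table (adjusted p 2.26e-06), whereas the female ratio was 1.15 with an adjusted p of 1. Control males were 4.77-fold below control females (adjusted p 3.79e-15) and knockout males 1.87-fold below knockout females (adjusted p 0.00931). The voom log2 change was 1.49 (SE 0.282, adjusted p 0.0412) in males and 0.19 (SE 0.194, adjusted p 0.817) in females, with an interval in females from -0.25 to 0.63. Between control sexes it was -2.21 (SE 0.281, adjusted p 0.00849), and between knockout sexes -0.91 (SE 0.195, adjusted p 0.128). The control call was lost without the deeper control female library (adjusted p 0.119) or the deeper control male library (adjusted p 0.172). The male knockout call was lost in voom without either control male library, either control female library or the shallower knockout male library, with adjusted p from 0.0589 to 0.337.

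**Figure D3:**
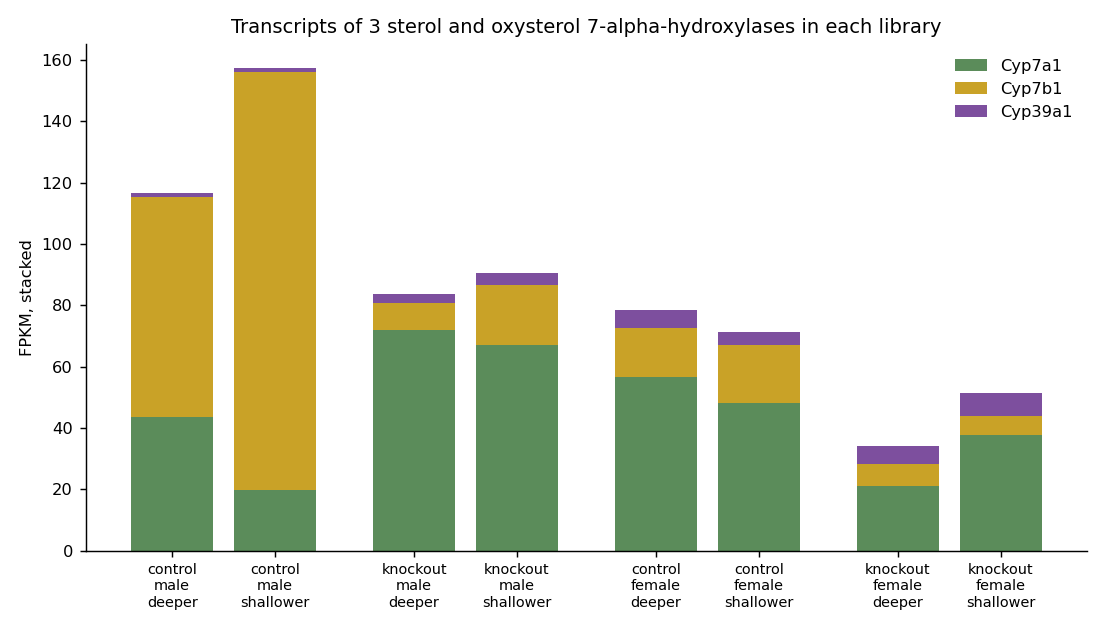
Stacked FPKM of Cyp7a1, Cyp7b1 and Cyp39a1 in each of the 8 libraries (linear axis from 0). Cyp7b1 makes up most of the bar in both control male libraries and Cyp7a1 most of it in the other 6.

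Set side by side per length, the 3 sterol and oxysterol hydroxylases Cyp7a1, Cyp7b1 and Cyp39a1 made up different mixtures in the groups, as the stacked plot shows. Cyp7b1 took 61.6% of their summed FPKM in the deeper and 86.6% in the shallower control male library. In the other groups it took 10.5% and 21.5% (knockout male), 20.4% and 26.5% (control female) and 21.4% and 12% (knockout female), and these groups overlapped one another. The level of Cyp7a1 was 0.608 and 0.146 times that of Cyp7b1 in control males and between 2.55 and 8.19 times that of Cyp7b1 in the 6 other libraries. Cyp39a1 was 1.02% and 0.727% of the sum in control males and 17.1% and 14.5% in knockout females. The sum itself was lowest in knockout females, at 34.1 and 51.3 FPKM, against 117 and 157 in the control male, 83.7 and 90.6 in the knockout male and 78.6 and 71.3 in the control female libraries.

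Cyp8b1 (mm9 chr9:121823473-121825423), the branch enzyme towards cholic acid whose promoter is shown above on GRCm38.p6, was higher in males than in females among knockouts. It was at 17.6 and 39.3 FPKM in the control male libraries, 28.8 and 43.3 in the knockout male, 15.8 and 13.1 in the control female and 21.1 and 15.6 in the knockout female libraries. The male libraries of each genotype lay above the female libraries of that genotype, with the deeper control male library only just above the control females. The deposited ratio of males to females was 1.98 in knockouts (adjusted p 0.00534) and 1.73 in controls (adjusted p 0.264). The voom log2 differences were 0.98 (SE 0.294, adjusted p 0.346) and 0.70 (SE 0.30, adjusted p 0.403). The knockout and control libraries overlapped in each sex, with deposited folds of 1.32 and 1.16 and an adjusted p of 1 in both.

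Hsd3b7 (chr7:134944122-134947316), the dehydrogenase shared by both pathways, was at 44.7 and 103 FPKM in the control male libraries, the widest pair within a group for any of the 10 genes. The other libraries lay closer together, at 52.6 and 62.2 for knockout males, 52.5 and 56.8 for control females and 73.3 and 63.9 for knockout females. No deposited test called it, with folds from 1.14 to 1.24. In the annotation Hsd3b7 overlaps the protein-coding gene Gm49388 on its own strand and 9430064I24Rik on the opposite strand, so that some of its reads may belong to Gm49388.

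Akr1d1 (chr6:37480172-37518815), the ring reductase, ranged from 29.2 FPKM in the shallower control male library to 45.2 in the shallower knockout female library, and the groups overlapped in all 4 comparisons. Its deposited folds were 1.01 to 1.15 and its voom intervals of the knockout change were -0.23 to 0.75 in males and -0.39 to 0.58 in females.

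The conjugation genes were called in no comparison. Slc27a5 (chr7:13573695-13583541), the most abundant of the 10 in knockout males and in females, was at 101 and 103 FPKM in the control male libraries, 114 and 158 in the knockout male, 109 and 84.3 in the control female and 114 and 129 in the knockout female libraries. In FPKM, knockout libraries exceeded control libraries in each sex. The deposited fold was 1.34 in males (unadjusted p 0.0612, adjusted p 0.85) and 1.14 in females (adjusted p 1). The deeper control female library held 8830 Slc27a5 reads of 11361272 in genes, and the deeper knockout female library 8046 of 10802418. By that share the female groups overlapped. Baat (chr4:49502289-49519430) was at 50.8 and 56.9 FPKM in the control male libraries, 57.8 and 52.9 in the knockout male, 39.2 and 41.1 in the control female and 51.4 and 57.8 in the knockout female libraries. The control female libraries were the lowest of the 8, and the deposited fold of knockout over control females was 1.24 (unadjusted p 0.0904, adjusted p 1).

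Nr0b2 (chr4:133109304-133112451), the repressor, was at 6.78 and 11.6 FPKM in the control male libraries, 5.08 and 7.67 in the knockout male, 7.51 and 9.28 in the control female and 10.7 and 8.81 in the knockout female libraries. The knockout male libraries lay below the knockout female libraries, by a deposited fold of 1.51 with an unadjusted p of 0.00937 and an adjusted p of 0.434. The knockout and control libraries overlapped in each sex. Pearson's r of log2(FPKM + 1) over the 8 libraries was taken for every pair of the genes described here. The largest in size were -0.87 for Cyp7b1 and Cyp39a1, -0.84 for Nr0b2 and Cyp7a1 and 0.78 for Nr0b2 and Hsd3b7. Cyp7a1 and Hsd3b7 came next at -0.755. For Nr0b2 and Cyp8b1, which Nr0b2 also represses, r was 0.0065. These are descriptions over libraries that share groups and depth, and repression by Nr0b2 was not tested.

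**Figure D4:**
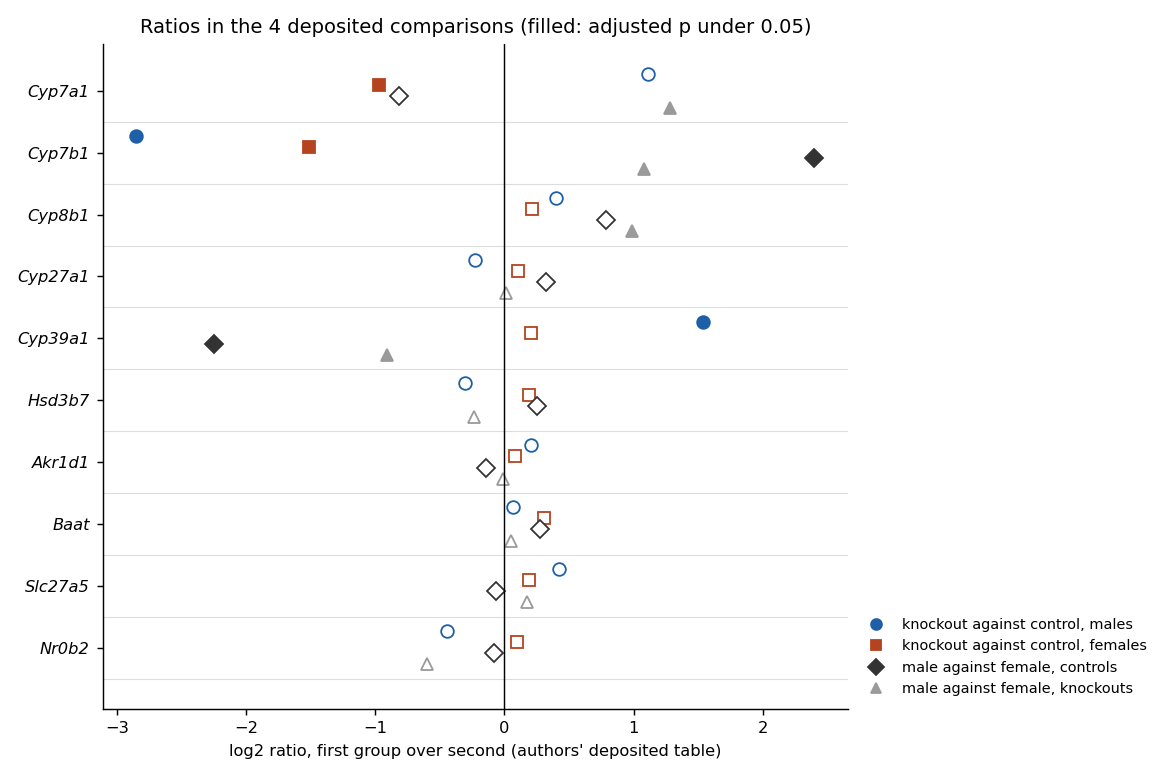
log2 ratios of the authors' deposited table for the 10 genes in 4 comparisons, with filled symbols where the adjusted p was under 0.05. Cyp7b1 is filled in all 4 comparisons, Cyp39a1 in 3, Cyp7a1 in 2 and Cyp8b1 in 1.

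Over all 10 genes the pools of a group lay furthest apart in control males. The median ratio of the higher to the lower library was 1.57 in control males, 1.36 in knockout males, 1.19 in control females and 1.17 in knockout females, beside medians of 1.19, 1.14, 1.14 and 1.1 over all genes with at least 1 FPKM and reads in both libraries. Clock genes, chosen after these values were seen, differed between the same pools. Arntl was at 0.378 FPKM in the deeper and 2 in the shallower control male library, Nr1d1 at 4.95 and 20.4, Ciart at 5.75 and 0.81, Clock at 2.26 and 5.58, Per2 at 5.91 and 1.83 and Dbp at 21.4 and 14.1. In knockout males Ciart was at 1.22 and 6.02 and Dbp at 5.79 and 24.9, whereas in each female group the higher library exceeded the lower by at most 2.14-fold for any of the 6 genes. The time of day at which livers were taken is not given in the labels. The part of these differences in the levels of the bile acid genes was not tested.

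Of the markers of other cells, 1 of 6 cholangiocyte genes and 1 of 7 macrophage genes were called in knockout against control males. Of all listed genes, 2.18% were called there. The cholangiocyte list summed to 37.7 and 28.9 FPKM in the knockout male libraries, against 2.77 and 6.85 in the control male ones and 5.12 to 9.33 in the 4 female ones. Nearly all of this was Spp1, at 37.1 and 28.2 FPKM in knockout males and called, while Krt19 was at 0.069 to 0.315 FPKM in the 8 libraries and Cftr at 0 in 4 of them. The macrophage list summed to 48.5 and 49.7 FPKM in the knockout male libraries, against 32.2 and 33.5 in the control male ones and 41.1 to 57.7 in the 4 female ones, with C1qa called between the male groups and none of its 7 listed genes at 0. The endothelial list summed to 17.4 and 19.3 FPKM in the control and 18.2 and 19.9 in the knockout male libraries, and the stellate list to 7.3 and 10.1 and to 7.9 and 8.76, with no gene of either called in that comparison. Between the sexes Lrat was lower in males in both genotypes, Cd3e was lower in males among controls, and Spp1 and Ctrb1 were higher in males among knockouts. The share of all listed genes called was 1.47% between the control sexes and 1.01% between the knockout sexes. Pancreas acinar genes summed to at most 2.56 FPKM, in the shallower knockout male library. Since whole liver was sequenced, fewer hepatocytes and less RNA per hepatocyte cannot be told apart, and the part of other cells in the results was not tested.

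Around the 10 genes stand others of bile acid synthesis, regulation and transport, whose calls are read against the same shares of all listed genes, 2.18% for the male and 1.55% for the female knockout comparison. Of 13 other genes of synthesis, 2 fell in knockout males, namely Scp2 and Cyp2c70, and none was called in knockout females. There 4 of the 13 had an unadjusted p under 0.05 in the authors' test, beside 910 of the 8974 genes with a mean of at least 1 FPKM. Scp2, whose longer product is the thiolase that shortens the side chain, averaged 616 ± 75.2 FPKM for control and 273 ± 57.1 for knockout males, and 212 ± 29.6 and 226 ± 17.2 for the female groups (SD, n = 2). By the authors' deposited table, the knockout level of Scp2 was 2.23-fold below control for males (adjusted p 2.7e-05). Control males exceeded control females 2.61-fold in that table (adjusted p 9.12e-08). Cyp2c70, which makes the muricholic acids of mice, averaged 205 ± 24.7 FPKM for control and 113 ± 0.126 for knockout males (SD, n = 2), a deposited fold of 1.8 lower (adjusted p 0.0149). In females it averaged 165 ± 5.03 and 134 ± 15.8 (SD, n = 2), a difference that was not called.

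Of 15 regulators, 1 fell in knockouts of each sex. This was Onecut1, a hepatocyte transcription factor, at 13.1 to 13.2 FPKM in the control male, 2.63 to 5.84 in the knockout male, 7.92 to 9.15 in the control female and 3.55 to 4.85 in the knockout female libraries. Knockout levels were 3.12-fold below control for males (adjusted p 2.12e-05) and 2.24-fold below for females (adjusted p 1.7e-05) in the authors' deposited table, and no other regulator was called in any comparison. In limma voom Onecut1 passed in males (adjusted p 0.0263) and not in females (adjusted p 0.194). Fgf15, the intestinal hormone that represses Cyp7a1, was listed at 0 in all groups.

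Of 13 transporters, 1 rose and 1 fell in knockout males and none was called in knockout females. Slco1a1, an uptake transporter of organic anions, averaged 169 ± 27.1 FPKM for control and 39.5 ± 25.2 for knockout males, and 49.6 ± 10.1 and 48.5 ± 39.4 for the female groups (SD, n = 2), and its knockout level was 4.34-fold below control for males (adjusted p 2.04e-06) in the authors' deposited table. Abcc4, an exporter of bile acids towards blood, averaged 0.142 ± 0.046 FPKM for control and 0.398 ± 0.0584 for knockout males (SD, n = 2), 2.45-fold higher with an adjusted p of 0.0283 in that table. Neither passed in limma voom for that comparison, with adjusted p of 0.124 and 0.199. Control males exceeded control females 3.12-fold for Slco1a1 (adjusted p 1.87e-08) and were 3.15-fold lower for Abcc4 (adjusted p 0.000588), and neither passed in limma voom (adjusted p 0.319 and 0.136). No gene of the 3 lists was called between knockout males and knockout females. In the order of the 4 comparisons above, the median deposited log2 ratio was -0.14, 0.10, 0.33 and 0.12 over the 11 synthesis genes with a mean of at least 1 FPKM, -0.06, -0.10, -0.04 and 0.01 over 14 regulators and -0.15, -0.06, 0.01 and -0.11 over 10 transporters.

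The genes whose levels followed each called member most closely were found by Pearson's r of log2(FPKM + 1) over the 8 libraries, among the 8974 genes with at least 1 FPKM. For Cyp7b1 they were Hsd3b2, Dna2 and Rap2a, with r of 0.99, 0.99 and 0.98. For Cyp39a1 they were Mpzl2, Sult2a2 and Serpinb6a, each with r of 0.96. For Cyp7a1 they were Ccl9, Cebpzos and Slc20a1, with r of 0.94, 0.94 and 0.92, and for Cyp8b1 they were Dhx32, Isoc2b and Rbbp9, with r of 0.99, 0.97 and 0.97. With 8 points in 4 groups, high values of r arise easily among so many genes, and these are descriptions.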

How the data were processed

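RNA of whole liver was sequenced after rRNA depletion with a directional kit, per the labels' protocols. The submitters' processing notes name TopHat2, featureCounts, edgeR and the build mm9, for which versions and settings are not given here. The authors deposited a table with the mean FPKM of each group, per the file headers, and for each of 4 comparisons an edgeR ratio, a signed fold change (a score below 0 for lower values, per the file headers), a p-value and an adjusted p-value deposited beside it, which equals Benjamini-Hochberg over 24197 genes within 2.5e-08. FPKM divides by a library total, so abundant transcripts lower all others.

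From these values the libraries were recovered: each mean is the average of 2 whole read numbers over their library totals and the gene length. A search found them for all 18004 genes above 0, with the gene length also searched for 14747 of these. The deposited FPKM was matched within 2.2e-11, but such a match was the condition of the search and is no separate check. A test of the search used artificial data, not the listed genes. There the FPKM of both libraries came out right in 300 of 300 cases. All read numbers came out right in 235 of 237 cases with at least 50 reads. Whether the library totals found for the deposited means are right was not tested. The length found for Baat may be too short, which leaves its FPKM unaffected. Reads in genes ran from 2288033 to 11361272 a library, and counts this large leave the spread between pools, not counting, as the limit for most of the 10 genes.

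Calls come from the authors' test at adjusted p under 0.05. The alternatives were limma 3.58.1 (R 4.3.3) on log2(FPKM + 1), with a pseudocount of 0.1, or with a mean of at least 1 FPKM, and limma voom on recovered reads with median-of-ratios or TMM scaling, at least 10 reads in 2 libraries or no filter, and each library left out. The interaction was tested with limma on log2(FPKM + 1), and limma voom was its alternative. Adding 1 shrinks the changes of genes at low FPKM. The full fits used 8 libraries and 4 residual degrees of freedom, and those with a library left out had 7. The limma and voom fits were tested on simulated data.

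The 10 genes, the pathway lists and the markers were chosen with earlier results of these data known. All 10 genes are named, of the lists those called in any comparison, and for each called member the 3 genes with the highest r. Symbols were matched in the table's second symbol column. Overlaps of genes come from GENCODE M21.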

Additional observations from a re-analysis of the deposited data

Results flagged for a closer look

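Cyp7a1 ratios lay on opposite sides of 1 in the sexes and in the genotypes. The ratio of knockout to control was 2.15 in males and 0.511 in females, and the ratio of males to females was 0.568 in controls and 2.42 in knockouts, all from the authors' deposited table. Of these, knockout against control females (adjusted p 0.011) and the sexes of the knockouts (adjusted p 0.000521) passed the authors' edgeR test, whereas the male knockout comparison (adjusted p 0.0636) and the sexes of the controls (adjusted p 0.48) did not, and none passed in limma voom. In each of the 4 comparisons the libraries of the groups did not overlap, which was also true of 36.9% to 52.9% of genes with at least 1 FPKM. The interaction was tested with limma voom and missed the threshold, with an unadjusted p of 0.00311 and an adjusted p of 0.72, and with limma on log2(FPKM + 1) the adjusted p was 0.84. The control male libraries, at 43.6 and 19.9 FPKM, and the knockout female libraries, at 20.9 and 37.7, lay 2.19-fold and 1.80-fold apart within their group. Clock genes lay up to 7.1-fold apart between the control male pools and up to 2.14-fold between the knockout female pools. In knockout males they lay up to 4.93-fold apart, and Cyp7a1 lay 1.07-fold apart. The part of the clock gene differences in the Cyp7a1 levels was not tested.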

How the results depend on the processing

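The alternatives were 14 refits of the recovered libraries, and in none of them did a ratio that the authors' test called change direction. Cyp7b1 in knockout males passed in 12 of the 14 refits, with log2 changes from -3.44 to -2.41 and adjusted p from 0.00194 to 0.08. Cyp39a1 between control males and females passed in 11 and Cyp7b1 in 9, Cyp39a1 in knockout males in 6 and Cyp7b1 in knockout females in 2. The calls of Cyp7a1 and Cyp8b1, and those of Cyp7b1 and Cyp39a1 between the knockout sexes, passed in 0, with adjusted p from 0.0992 to 1. Among knockout against control males the authors' test called 2 members, limma on log2(FPKM + 1) or log2(FPKM + 0.1) called 0, the filter at 1 FPKM gave 1 and leaving out a library gave 1 to 2. Among females every full refit called 0 and leaving out a library gave 0 to 1, with 1 (Cyp7b1) without either knockout male library. Between control sexes log2(FPKM + 1) gave 0, log2(FPKM + 0.1) gave 1 and leaving out a library 0 to 2, with 0 without the deeper control female library and 1 without the shallower one or either control male library. Between knockout sexes every refit gave 0 against the authors' 4. The cause was not tested. The interaction called 0 of the 10 genes in the 4 full fits run and with each library left out.

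Ratios near 0 changed sign. Without one library at a time the log2 ratio of Akr1d1 ran from -0.11 to 0.60 in knockout against control males, -0.038 to 0.21 in females, -0.52 to 0.19 between control sexes and -0.11 to 0.089 between knockout sexes. The same range was -0.071 to 0.17 for Baat in males and -0.076 to 0.16 between knockout sexes, -0.059 to 0.92 for Cyp8b1 in males and -0.021 to 0.40 in females, and -0.00025 to 0.44 for Cyp39a1 in females. It was -0.75 to 0.27 for Hsd3b7 in males and -0.33 to 0.69 between control sexes, and -0.11 to 0.27 for Nr0b2 in females and -0.36 to 0.29 between control sexes. It was -0.21 to 0.096 for Slc27a5 between control sexes and -0.019 to 0.35 between knockout sexes, and -0.16 to 0.15 for Cyp27a1 between knockout sexes. The deposited Cyp27a1 ratio between knockout sexes also turned to -0.024 with limma on log2(FPKM + 1), -0.024 with log2(FPKM + 0.1), -0.0038 with voom, -0.0043 with TMM scaling and -0.0026 with no filter on reads. Between control sexes Slc27a5 turned to 0.082 and 0.083, and Nr0b2 to 0.080 and 0.084, with log2(FPKM + 1) and log2(FPKM + 0.1).

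No paired analysis was possible because the columns are group means and the recovered libraries carry no pool number. With 2 pools a group and 4 residual degrees of freedom, a difference under the spread between pools was not detectable, and the shallower control male library held 22 reads of Cyp39a1.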
